A study of Mus musculus with 9 samples.

Results

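The enzymes and glucose transporters that carry glucose through glycolysis, the pentose phosphate route and the citrate cycle were followed in the mouse uterus as 34 genes, taken by symbol from a list of pathway enzymes and not by a threshold on their values. All 34 were found among the 35930 genes of the whole series. RNA of whole uterus was sequenced in 9 libraries, 3 in each of 3 groups. Horns of the arrested group had received pooled medium conditioned by 18 human embryos that were arresting; horns of the competent group had received pooled medium of 9 developmentally competent human embryos; and horns of the control group had received embryo culture medium that no embryo had conditioned. All groups were C57BL/6 females that the labels give as 25 days old (the design text gives 21 days), primed with 1 mg of progesterone once and with β-estradiol at 10 mg/kg per day over 3 days, and 50 µl of medium went into a horn. The comparison addresses how the uterus responds to what human embryos of different quality secrete. The conditioned media were pools, and no label says whether libraries of a group are different animals; p-values therefore reflect library-to-library spread only, some of which may be technical.

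Glycolysis splits glucose into pyruvate. Glucose enters through transporters of the Slc2a family, is trapped by hexokinase and committed by phosphofructokinase, and yields ATP at the steps of phosphoglycerate kinase and pyruvate kinase. Pyruvate is either reduced to lactate by lactate dehydrogenase or passed by pyruvate dehydrogenase to the citrate cycle in mitochondria, while glucose-6-phosphate can be diverted into the pentose phosphate route, which supplies NADPH and ribose. Several steps are served by a pair of isozymes from different genes, and the balance within a pair differs between tissues. In the uterus, glucose uptake and glycolysis are known to increase in stromal cells as they decidualise, and lactate is a fuel that uterine tissue can provide to the embryo.

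Values are FPKM as the authors deposited them, summed over the annotated transcripts of a gene, and differences are differences of log2(FPKM + 1), a scale that understates changes of low genes. The depth in reads is unknown; the deposited coverage amounts to 1279 to 2359.7 Mb of sequence per library. Across tested genes, which are not independent of each other, pairs of libraries in the same group had r = 0.894 to 0.935, and pairs from different groups 0.893 to 0.932. The tissue expressed Hoxa10 and Hoxa11, homeobox genes of the uterus, at 29.8 to 79.5 and 19.2 to 50.9 FPKM. Arrested library 3 held the highest or lowest value more often than any other library among the 33 genes tested, and differences without it are given below for the genes it moved most. Markers of single cell types also differed between the groups, by their summed level or by the direction of their genes. All 8 smooth muscle genes were lower in arrested than in competent libraries, with summed levels of 881 to 2155 FPKM in arrested, 1392 to 2781 FPKM in competent and 1618 to 1696 FPKM in control libraries. All 9 cell division genes were also lower in arrested than in competent libraries, at 47.9 to 156, 159.8 to 267 and 59.2 to 91.0 FPKM in arrested, competent and control libraries. All 5 erythroid genes were higher in arrested than in control libraries (2091 to 4842 FPKM in arrested, 747 to 3966 FPKM in competent and 937 to 1499.9 FPKM in control libraries). All 5 were also higher in competent than in control libraries and in arrested than in competent libraries. Adipocyte genes summed to 1360.2 FPKM in arrested library 2 and to at most 170.3 FPKM in the other 8. Leukocyte genes summed to 37.6 to 58.1 FPKM in arrested, 66.6 to 90.7 FPKM in competent and 70.2 to 119.6 FPKM in control libraries, so that by this sum every arrested library was below all others. Of the 5 leukocyte genes tested, 2 were higher and 3 lower in arrested than in competent libraries, and all 5 were lower than in control libraries. Skeletal muscle genes, 1 of which was at 0 in every library, summed to 23.8 to 66.5, 42.5 to 149 and 67.0 to 93.1 FPKM in arrested, competent and control libraries, and endothelial genes to 26.2 to 64.9, 29.7 to 43.2 and 43.6 to 45.6 FPKM. The sums of smooth muscle, of epithelial and of stromal fibroblast genes overlapped between all groups. Of 8 stromal fibroblast genes, 6 were higher and 2 lower in arrested than in competent libraries, with a median difference of 0.47. Of 9 epithelial genes, 3 were higher and 6 lower, with a median of −0.16, beside −0.84 for the smooth muscle genes. No gene of these 9 lists passed the test, and their part in the results below was not tested. In whole tissue, fewer cells of a type and less RNA per cell cannot be told apart.

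Ldha, the muscle-type lactate dehydrogenase that favours lactate formation, was the most abundant of the 34 genes, at 549 to 1111 FPKM. By FPKM without genomic copies it was followed by Aldoa, the main aldolase (332 to 401 FPKM), Tpi1, triose phosphate isomerase (239.8 to 430.0 FPKM), and Mdh1, the cytosolic malate dehydrogenase (185 to 305 FPKM). G6pdx, the entry enzyme of the pentose phosphate route, had 115 to 211 FPKM, close to Gpi1, glucose phosphate isomerase, with 155 to 198 FPKM, and to Pkm2, pyruvate kinase, with 125 to 196 FPKM; the ranges of these 3 genes over the libraries overlap. At the low end stood Pfkp, the platelet phosphofructokinase, Hk2, the inducible hexokinase (2.18 to 7.21 FPKM), Eno2, the neuronal enolase (1.25 to 3.78 FPKM), and Pdk4, a kinase that switches pyruvate dehydrogenase off (0.712 to 3.75 FPKM). Slc2a3, the high-affinity glucose transporter GLUT3, was listed at 0, 1.10 and 0.849 FPKM in arrested libraries, 0, 0 and 0.264 FPKM in competent libraries and 0.195, 0 and 1.28 FPKM in control libraries; its mean lay under 1 FPKM, the minimum for testing, which the other 33 passed. For Pfkp the values were 0, 0 and 13.3 FPKM in arrested libraries, 0, 10.7 and 8.71 FPKM in competent libraries and 5.78, 0 and 0 FPKM in control libraries, so that it is described by these values alone. Level and share of a transcript depend on how Cufflinks divided reads: the 414-base transcript of Ldha carried 67.4% of its FPKM, and by mean read coverage over the gene Ldha stood at rank 405 among the 12609 tested genes, against rank 166 by FPKM. By coverage Ldha still led the 34 genes, and Tpi1, Aldoa, Pkm2, G6pdx and Mdh1 came next in that order. Of the 34 genes, 10 had a transcript that made up at least 10% of the gene and was listed at 0 in some libraries.

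**Figure D1:**
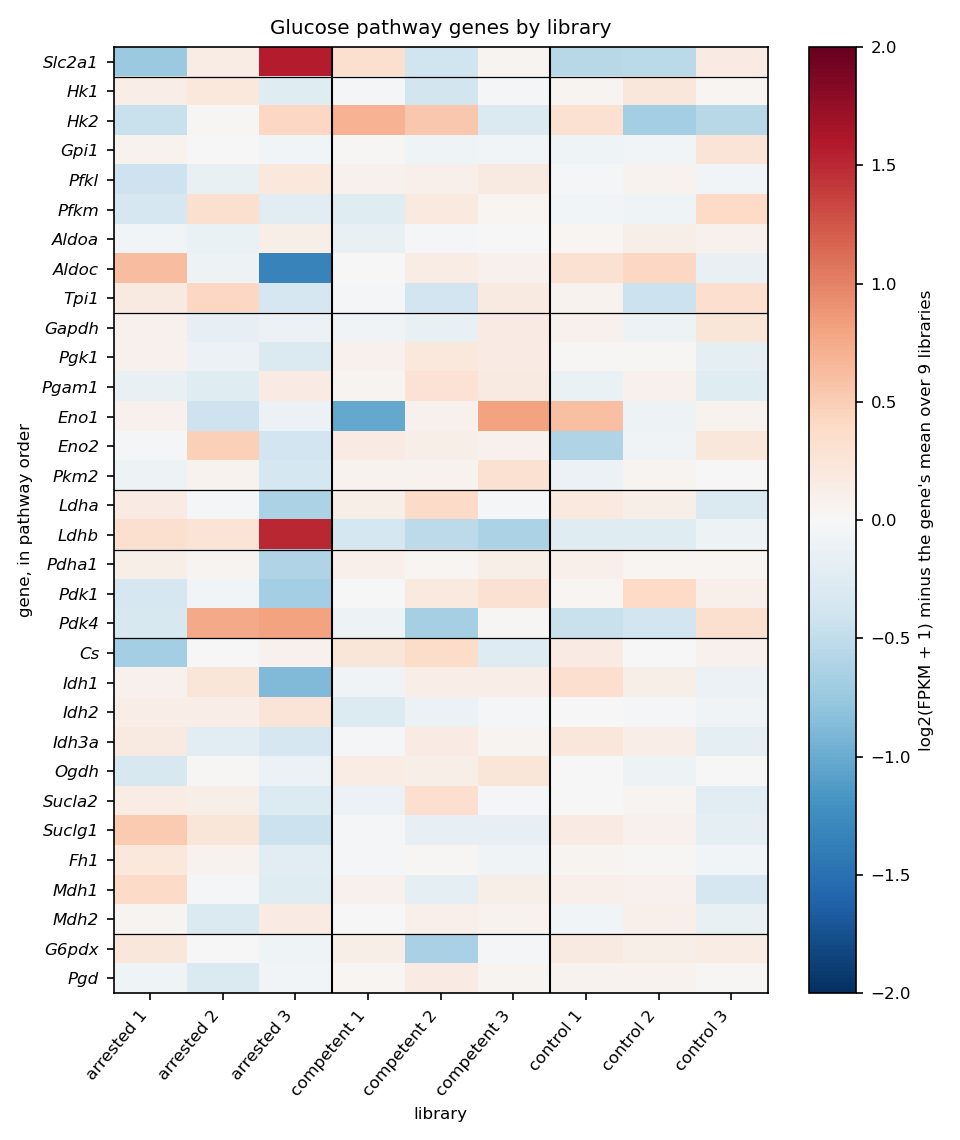
Heat map of log2(FPKM + 1) for the 32 genes above 0 in every library, each relative to its own mean over the 9 libraries; columns are libraries of the arrested, competent and control groups, rows run in pathway order, red is above and blue below the mean. Most rows are pale, and the strongest colours sit in arrested library 3, where Slc2a1 and Ldhb are high and Aldoc and Idh1 are low.

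Pkm2 makes a pair of enzymes by mutually exclusive splicing, and the exons that decide between them are shown because the share of the forms is followed further on. The M1 exon, found in the constitutively active enzyme of muscle and brain, lies at chr9:59522836-59523002 on the plus strand of NCBIM37 (mm9), and the M2 exon, found in the regulated enzyme of dividing cells, at chr9:59523375-59523541. Both are coding exons of 167 bases. Capitals mark the 64 bases at which they differ, which leaves them 61.7% identical.
M1 exon: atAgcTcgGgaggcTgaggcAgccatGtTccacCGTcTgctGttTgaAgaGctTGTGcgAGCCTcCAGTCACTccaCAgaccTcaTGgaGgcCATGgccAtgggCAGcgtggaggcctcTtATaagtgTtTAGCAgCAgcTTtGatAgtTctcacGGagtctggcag
M2 exon: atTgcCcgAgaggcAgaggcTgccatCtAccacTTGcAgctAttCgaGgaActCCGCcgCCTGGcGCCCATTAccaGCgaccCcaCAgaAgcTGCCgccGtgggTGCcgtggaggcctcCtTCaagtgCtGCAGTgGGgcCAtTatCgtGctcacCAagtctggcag
None of the 32-base stretches of the M1 exon occurs elsewhere in the genome, whereas 57.4% of those of the M2 exon do.

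Medium of arrested embryos against medium of competent embryos gave the largest differences among these genes, and none passed the test across all genes. Ldhb, the heart-type lactate dehydrogenase, was higher in the arrested group, while Pdk1, a kinase that inhibits pyruvate dehydrogenase, and Ogdh, a subunit of the 2-oxoglutarate dehydrogenase complex, were lower, and Idh2, the mitochondrial NADP-dependent isocitrate dehydrogenase, was higher. With limma and Benjamini-Hochberg adjustment over 12609 genes, 0 of 33 genes had an adjusted p under 0.05, against 0.127% of all genes tested (16 genes). At an unadjusted p under 0.05 it was 4 of 33, against 11.4% of all genes. By FPKM all arrested libraries lay above all competent ones for 2 of 33 genes (background 7.84%) and below them for 4 (background 8.87%). These shares are near those of all genes. Among the 32 genes above 0 in every library the differences ran from −0.53 for Pdk1 to 1.21 for Ldhb; of the 33 tested, 12 were above 0 and 21 below, with a median of −0.09 beside 0.00 to 2 decimals over all genes tested. For 26 of the 33 genes the 95% interval of the difference stayed within a 2-fold change in either direction, and for 11 within a 1.5-fold change.

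**Figure D2:**
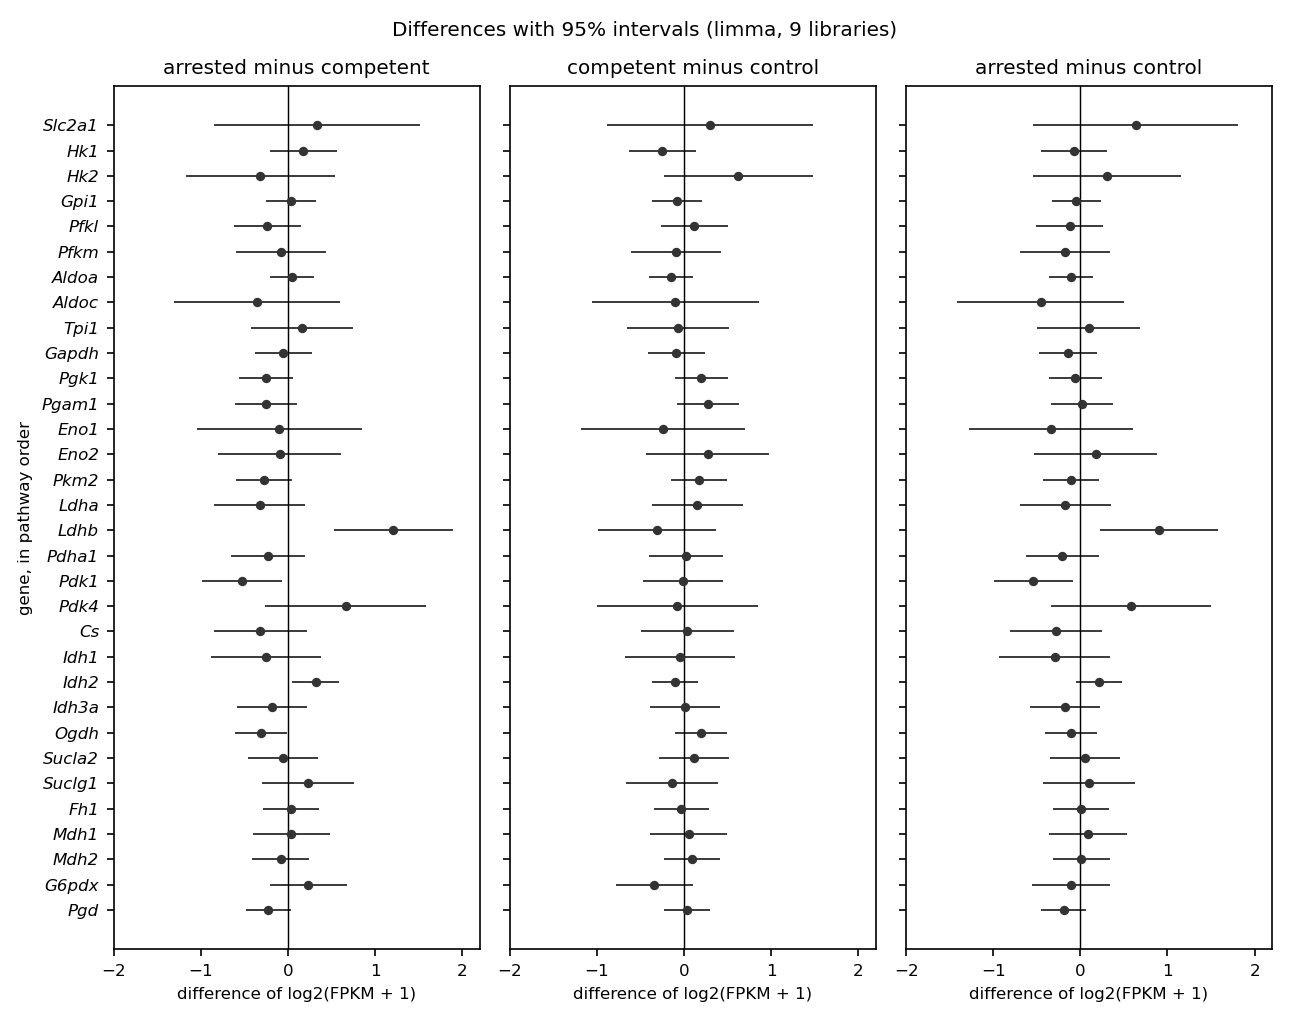
Differences of log2(FPKM + 1) with 95% intervals from limma for 32 genes in pathway order; the panels are arrested minus competent, competent minus control and arrested minus control. Intervals of Ldhb, Pdk1, Idh2 and Ogdh leave 0 in the first panel, none does in the second, and those of Ldhb and Pdk1 do in the third, before adjustment.

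Ldhb was the gene on which the arrested group stood furthest apart. Lactate dehydrogenase is a tetramer of Ldha and Ldhb subunits, and a higher share of Ldhb is known to favour the oxidation of lactate to pyruvate. Ldhb (chromosome 6, 142438769 to 142456477, minus strand, mm9) had 119.6, 115 and 273 FPKM in arrested libraries, 73.9, 65.7 and 60.9 FPKM in competent libraries and 80.5, 80.0 and 88.5 FPKM in control libraries. The 3 groups did not overlap: every arrested library was above every control library, and every control library was above every competent one. The value of arrested library 3 was more than that of the other arrested libraries combined. Arrested minus competent was 1.21 ± 0.30 (SE), adjusted p = 0.216 (limma, n = 3 each), with a 95% interval of 0.53 to 1.89. Without arrested library 3 the difference was 0.81 ± 0.13 with an adjusted p of 0.0645. Competent minus control was −0.31 ± 0.30 (SE), adjusted p = 0.960. Arrested minus control was 0.90 ± 0.30 (SE), adjusted p = 0.871, and without arrested library 3 it was 0.50, adjusted p = 0.630. By mean coverage in place of FPKM, the order of the groups was the same, with 136, 137 and 349 in arrested libraries, 86.0, 84.7 and 77.6 in competent libraries and 102, 102 and 104 in control libraries.

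Ldha, the partner of Ldhb, did not separate the groups. Its values were 958, 833 and 549 FPKM in arrested libraries, 927, 1111 and 833 FPKM in competent libraries and 971, 926 and 696 FPKM in control libraries. The groups overlap, and the lowest of the 9 is arrested library 3. The difference between arrested and competent libraries was −0.32 ± 0.23 (SE), adjusted p = 0.653. It was −0.09 without arrested library 3. The sum of both subunits was 949 ± 128 FPKM in arrested, 1024 ± 143 FPKM in competent and 947 ± 143 FPKM in control libraries (SD, n = 3 each).

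**Figure D3:**
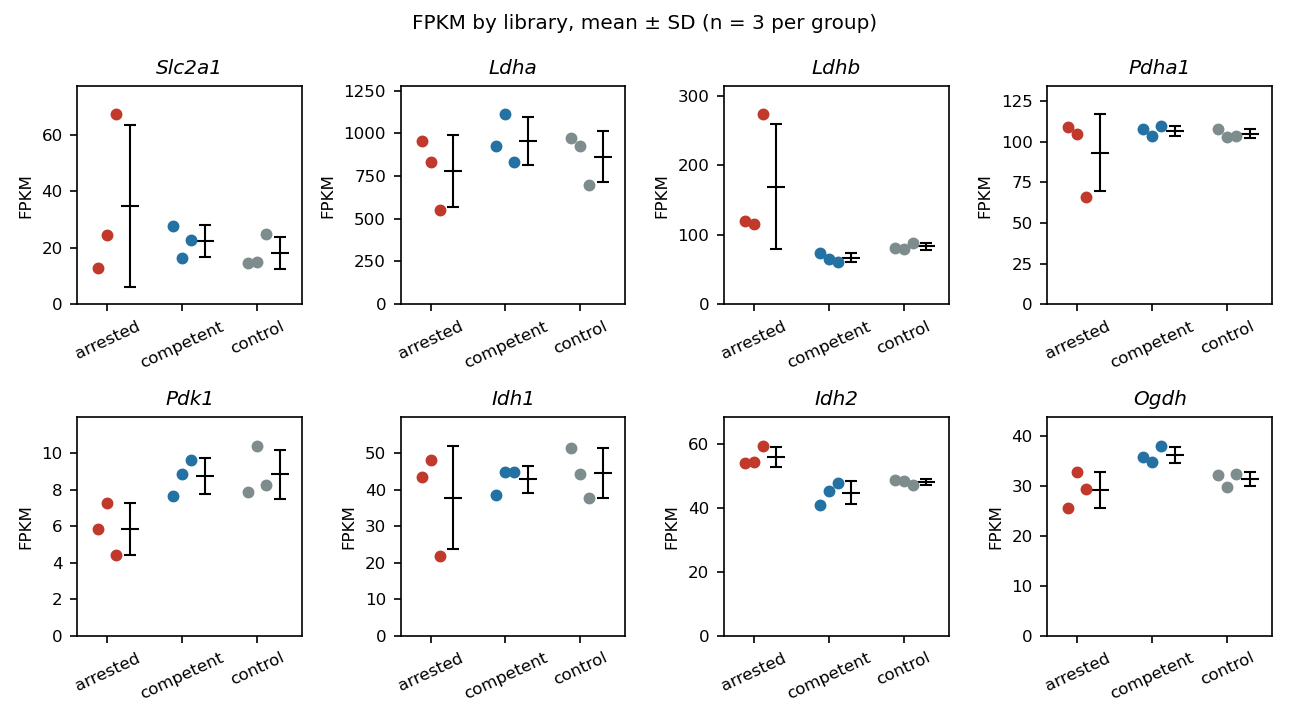
FPKM of 8 genes in each library (coloured points) with mean ± SD (black, n = 3) for the arrested, competent and control groups, on axes that start at 0. Ldhb separates the groups, Pdk1 is lowest in the arrested group, Idh2 highest, and the third point of the arrested group stands apart for Slc2a1, Ldhb, Pdha1 and Idh1.

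Of the glucose transporters among the 34, only Slc2a1 was above the minimum for testing; it encodes GLUT1, the widely expressed basal transporter. Slc2a1 had 12.7, 24.6 and 67.2 FPKM in arrested libraries, 27.7, 16.4 and 22.8 FPKM in competent libraries and 14.7, 14.8 and 24.7 FPKM in control libraries. Arrested library 3 was above every other library, and arrested library 1 below every other one, so the groups overlap. Its difference between arrested and competent libraries was 0.33 ± 0.52 (SE), adjusted p = 0.864, and without arrested library 3 it was −0.29 ± 0.35, with the sign turned. The long transcript of Slc2a1 alone was listed at 12.7, 13.4 and 67.2 FPKM in arrested libraries, 16.1, 16.4 and 13.9 FPKM in competent libraries and 14.7, 14.8 and 13.0 FPKM in control libraries. On that transcript the other 8 libraries lie within a narrow band and arrested library 3 is the exception.

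From hexokinase to triose phosphate isomerase, 9 genes were measured, of which 4 were higher and 5 lower in arrested than in competent libraries; none passed the test. Hk1, the constitutive hexokinase, averaged 25.5 ± 4.19 FPKM in arrested libraries, 22.3 ± 2.92 FPKM in competent libraries and 26.6 ± 2.12 FPKM in control libraries (SD, n = 3 each, as for all means below). Hk2 had 2.73, 4.16 and 5.73 FPKM in arrested libraries, 7.21, 6.38 and 3.14 FPKM in competent libraries and 5.24, 2.18 and 2.45 FPKM in control libraries. Both libraries of highest Hk2 were competent ones, yet the third competent library lay among the controls, and arrested minus competent was −0.32 ± 0.37 (SE), adjusted p = 0.810. Gpi1 was among the steadiest genes, with 165 ± 7.29 FPKM in arrested libraries, 161 ± 6.98 FPKM in competent libraries and 171 ± 23.2 FPKM in control libraries, a difference of 0.04 and a 95% interval of −0.25 to 0.32. Of the phosphofructokinases, which catalyse the committed step, the liver form Pfkl averaged 23.6 ± 5.54 FPKM in arrested libraries, 27.5 ± 1.04 FPKM in competent libraries and 25.3 ± 1.20 FPKM in control libraries, and the muscle form Pfkm 12 ± 3.31 FPKM in arrested libraries, 12.5 ± 2.02 FPKM in competent libraries and 13.5 ± 2.84 FPKM in control libraries. Aldoa averaged 364 ± 33.1 FPKM in arrested libraries, 353 ± 18.7 FPKM in competent libraries and 390.1 ± 11.6 FPKM in control libraries, with an interval of −0.21 to 0.30. Aldoc, the aldolase known from brain, had 44.0, 26.3 and 10.7 FPKM in arrested libraries, 28.6, 31.6 and 30.3 FPKM in competent libraries and 35.0, 38.0 and 25.3 FPKM in control libraries. By FPKM arrested libraries 1 and 3 held its highest and its lowest value, and the difference of −0.36 came to an adjusted p of 0.809. Without arrested library 3 the sign turned, to 0.17. By coverage control libraries 1 and 2, at 24.4 and 27.0, were above arrested library 1, at 23.2, and arrested library 3 was still lowest. A processed transcript of Aldoc was listed at 9.16, 6.16 and 3.86 FPKM in arrested libraries and at 0 in the other 6. Tpi1 had 365, 430.0 and 254 FPKM in arrested libraries, 315, 247 and 364 FPKM in competent libraries and 336, 239.8 and 406 FPKM in control libraries. A retained-intron transcript of Tpi1 was listed at 172 FPKM in arrested library 2 and 172 FPKM in control library 3 and at 0 in the other 7.

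From Gapdh to pyruvate kinase, all 6 genes averaged lower in arrested than in competent libraries on the log scale, with a median difference of −0.17, and none passed the test. The count was also 6 of 6 after division by size factors, 5 of 6 without arrested library 2 or 3, and 4 of 6 by coverage or without competent library 3. Pgk1, phosphoglycerate kinase, averaged 69.0 ± 9.31 FPKM in arrested libraries, 82.1 ± 3.56 FPKM in competent libraries and 71.6 ± 5.84 FPKM in control libraries and differed by −0.26 ± 0.14 (SE), adjusted p = 0.524. Pgam1, phosphoglycerate mutase, averaged 42.5 ± 6.47 FPKM in arrested libraries, 50.5 ± 3.98 FPKM in competent libraries and 41.7 ± 5.23 FPKM in control libraries and differed by −0.25 ± 0.15 (SE), adjusted p = 0.589. Pkm2 had 147, 167 and 125 FPKM in arrested libraries, 167, 167 and 196 FPKM in competent libraries and 147, 164 and 159 FPKM in control libraries. By FPKM each arrested library was below each competent one, by a margin of under 1 FPKM at the closest. The difference was −0.28 ± 0.14 (SE), adjusted p = 0.502 (limma). By coverage arrested library 2, at 235, was above competent library 1, at 231. Gapdh, glyceraldehyde-3-phosphate dehydrogenase, averaged 71.7 ± 6.76 FPKM in arrested libraries, 74.5 ± 8.65 FPKM in competent libraries and 79.3 ± 9.29 FPKM in control libraries, a difference of −0.05 with an interval of −0.38 to 0.28. Eno1, the ubiquitous enolase, had 154, 109 and 133 FPKM in arrested libraries, 70.3, 153 and 253 FPKM in competent libraries and 221, 135 and 151 FPKM in control libraries. Its main transcript was listed at 0 in competent library 1 and a retained-intron transcript at 96.9 and 84.8 FPKM in competent library 3 and control library 1 and at 0 in the rest. Eno2 averaged 2.59 ± 1.09 FPKM in arrested libraries, 2.72 ± 0.0889 FPKM in competent libraries and 2.16 ± 0.870 FPKM in control libraries.

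Many glycolytic genes have copies in the genome whose sequence matches their transcripts; how such reads were assigned is not stated in the sources read. Of all 32-base stretches of the Gapdh transcript, 85.8% occurred at 1 or more other places. The share was 94.0% for Pgk1, 93.9% for Pgam1, 77.0% for Eno1, 62.6% for Pkm2, 58.6% for Ldha and 51.3% for Ldhb. It was 48.2% for Gpi1, 38.6% for Aldoa, 37.8% for Tpi1, 14.2% for G6pdx and 10.9% for Cs. For Slc2a1, Pfkm, Aldoc, Idh1, Idh2, Idh3a, Sucla2, Suclg1, Mdh1 and Pgd it was 0. The authors' files listed 70 annotated Gapdh copies, which together held 614 FPKM on average, against 75.2 FPKM under Gapdh itself. The copies Pgk1-rs7 and Gm5537 were listed at 48.2 and 48.1 FPKM, against 74.2 FPKM under Pgk1, and their values were equal to 1 decimal in 8 of 9 libraries. An annotated copy was counted from 10% of shared stretches upward. The Gapdh copies shared 10.1 to 84.0% of the stretches of Gapdh, and the Ldha copies 11.4 to 22.7% of those of Ldha. Places without an annotated gene were not counted, such as a place on chromosome 13 with 24.5% of the stretches of Ldha. The levels of these genes relative to genes without copies are uncertain. For Ldhb, the single copy Gm5514 had 28.6, 21.4 and 68.0 FPKM in arrested libraries, 11.7, 12.2 and 14.3 FPKM in competent libraries and 22.1, 25.1 and 18.3 FPKM in control libraries. This copy ordered the groups much as Ldhb did, with arrested library 3 highest and the competent libraries lowest, though arrested library 2 lay among the controls. With each gene and its copies summed, Ldhb averaged 209 ± 115 FPKM in arrested, 79.6 ± 5.41 FPKM in competent and 105 ± 2.18 FPKM in control libraries. Gapdh with its copies averaged 655 ± 52.0, 693 ± 66.8 and 719.5 ± 70.2 FPKM in arrested, competent and control libraries. No gene of the 34 passed the test with its copies added.

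**Figure D4:**
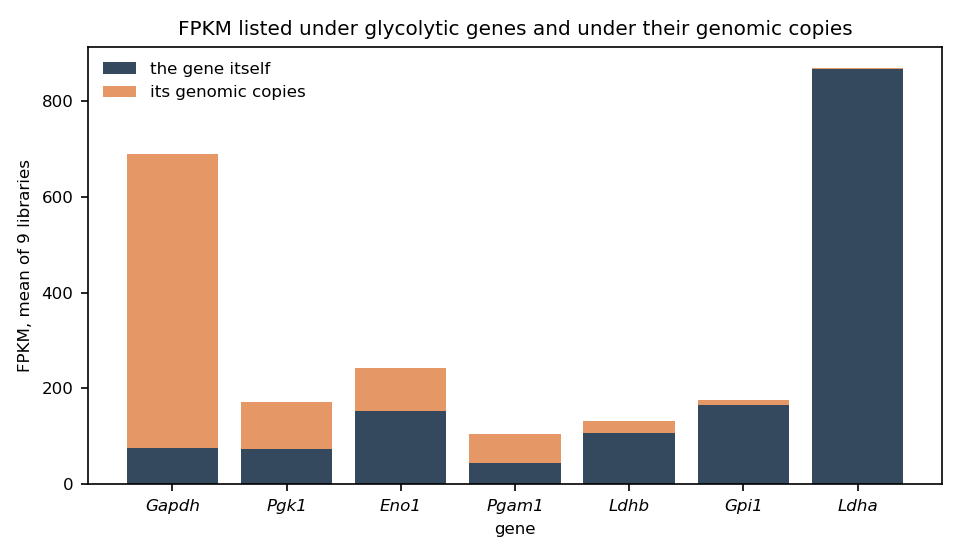
Stacked bars of mean FPKM over the 9 libraries, dark for the amount listed under a gene and light for the amount listed under its annotated genomic copies, for the 7 genes whose copies summed to at least 1 FPKM. Under Gapdh, Pgk1 and Pgam1 the copies hold more than the gene itself, and under Ldha almost nothing.

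The gate from pyruvate to the citrate cycle held 3 of the genes. Pdha1, the catalytic E1 alpha subunit of pyruvate dehydrogenase, had 109, 105 and 65.9 FPKM in arrested libraries, 108, 103 and 109.5 FPKM in competent libraries and 108, 103 and 104 FPKM in control libraries. Arrested library 3 was below the other 8, which spanned 103 to 109.5 FPKM. Pdk1 had 5.83, 7.29 and 4.41 FPKM in arrested libraries, 7.68, 8.88 and 9.66 FPKM in competent libraries and 7.90, 10.4 and 8.24 FPKM in control libraries. By FPKM every arrested library was below every competent and every control library. By coverage arrested library 2, at 5.64, was above competent library 1 (5.19) and control library 2 (5.02). A processed transcript made up 57.6% of the FPKM of Pdk1. Its protein-coding transcript had 1.25, 3.19 and 2.39 FPKM in arrested libraries. That transcript had 1.86, 3.85 and 4.09 FPKM in competent libraries and 3.67, 1.53 and 3.27 FPKM in control libraries, so that the groups overlap on it. Arrested minus competent was −0.53 ± 0.20 (SE), adjusted p = 0.377. Without arrested library 3 the difference of Pdk1 was −0.37 ± 0.19. Pdk4, the kinase induced by fasting, had 1.19, 3.60 and 3.75 FPKM in arrested libraries, 1.55, 0.712 and 1.77 FPKM in competent libraries and 1.01, 1.10 and 2.38 FPKM in control libraries. The highest values were those of arrested libraries 2 and 3, and the groups overlap. Pdk4 is abundant in fat, and adipocyte markers summed to 1.65, 1360.2 and 148 FPKM in arrested libraries 1, 2 and 3. These markers summed to 1.42, 170.3 and 60.4 FPKM in competent libraries and to 113, 52.7 and 4.15 FPKM in control libraries. Their part in Pdk4 was not tested.

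In the citrate cycle and its cytosolic partners, 4 of 10 genes were higher and 6 lower in arrested than in competent libraries, and none passed the test. Idh2 had 54.0, 54.3 and 59.4 FPKM in arrested libraries, 40.9, 45.4 and 48.0 FPKM in competent libraries and 48.8, 48.6 and 47.1 FPKM in control libraries. All arrested libraries were above all others; arrested minus competent was 0.32 ± 0.12 (SE), adjusted p = 0.371. This gene has 1 transcript and no copy in the genome, and its values varied by 5.70% within groups (pooled coefficient of variation). Idh1, its cytosolic counterpart, had 43.5, 48.2 and 21.7 FPKM in arrested libraries, 38.6, 44.9 and 44.9 FPKM in competent libraries and 51.5, 44.4 and 37.6 FPKM in control libraries. Arrested library 3 was the lowest, and the other 8 spanned 37.6 to 51.5 FPKM. Ogdh had 25.5, 32.7 and 29.4 FPKM in arrested libraries, 35.7, 34.8 and 38.0 FPKM in competent libraries and 32.1, 29.8 and 32.3 FPKM in control libraries. By FPKM each arrested library was below each competent one, and each competent one above each control library, while arrested and control libraries overlap. Arrested minus competent was −0.30 ± 0.13 (SE), adjusted p = 0.427. By coverage arrested library 2 (37.8) was above competent library 2 (34.1), which was below every control library. On the transcript of highest mean FPKM, arrested libraries had 15.3, 25.1 and 13.2 FPKM and competent libraries 22.9, 10.1 and 28.9 FPKM. There the difference was −0.14, adjusted p = 0.931 (limma). A further transcript was listed at 8.93 FPKM in arrested library 3 and 11.1 FPKM in competent library 2 and at 0 in the rest. Citrate synthase, Cs, which joins acetyl groups to oxaloacetate, had 33.5, 53.6 and 57.5 FPKM in arrested libraries, 64.0, 70.1 and 45.0 FPKM in competent libraries and 60.4, 54.1 and 57.3 FPKM in control libraries, with arrested library 1 lowest. Idh3a, a subunit of the NAD-dependent enzyme of the cycle, averaged 28.2 ± 5.65 FPKM in arrested libraries, 31.9 ± 2.29 FPKM in competent libraries and 31.9 ± 4.77 FPKM in control libraries. Suclg1, the alpha subunit of succinyl-CoA ligase, had 119, 97.1 and 60.7 FPKM in arrested libraries, 80.2, 73.5 and 73.0 FPKM in competent libraries and 92.1, 87.1 and 71.4 FPKM in control libraries, so that arrested libraries 1 and 3 were its extremes. Its ADP-specific partner Sucla2 averaged 47.9 ± 7.71 FPKM in arrested libraries, 49.9 ± 8.84 FPKM in competent libraries and 45.9 ± 4.50 FPKM in control libraries. Fumarase, Fh1, averaged 30.3 ± 4.66 FPKM in arrested libraries, 29.2 ± 1.02 FPKM in competent libraries and 29.8 ± 1.27 FPKM in control libraries, with a difference of 0.04 and an interval of −0.28 to 0.36. The malate dehydrogenases, which shuttle reducing equivalents across the mitochondrial membrane, averaged 245 ± 54.5 FPKM in arrested libraries, 236 ± 25.6 FPKM in competent libraries and 229 ± 38.1 FPKM in control libraries for cytosolic Mdh1 and 124 ± 19.4 FPKM in arrested libraries, 131 ± 4.04 FPKM in competent libraries and 123 ± 10.9 FPKM in control libraries for mitochondrial Mdh2.

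Both NADPH-forming enzymes of the pentose phosphate route were abundant. Pgd, phosphogluconate dehydrogenase, had 80.5, 69.7 and 82.2 FPKM in arrested libraries, 87.7, 95.2 and 88.5 FPKM in competent libraries and 89.4, 89.0 and 86.5 FPKM in control libraries. Each arrested library was below each competent and each control library, with a difference of −0.22 ± 0.11 (SE), adjusted p = 0.502 from the competent group. G6pdx had 211, 179 and 170.3 FPKM in arrested libraries, 195, 115 and 176 FPKM in competent libraries and 204, 197 and 201 FPKM in control libraries. Its low value in competent library 2 came with a second transcript that was listed at 0 there and at 80.9 to 113 FPKM in the others. On the transcript of 2652 bases that library was instead the highest, with 115 FPKM.

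Between competent and control libraries the differences were the smallest of the 3 comparisons, with a median absolute size of 0.11, beside 0.19 over all genes tested; it was 0.23 between arrested and competent libraries, beside 0.25 over all genes, and 0.17 between arrested and control libraries, beside 0.20. The largest difference of a gene above 0 in every library was that of Hk2, which averaged 5.57 ± 2.15 FPKM in competent and 3.29 ± 1.69 FPKM in control libraries, a difference of 0.62 ± 0.37 (SE), adjusted p = 0.960. None of 33 genes passed the test, against 0.0317% of all genes (4 genes), and 0 of 33 had an unadjusted p under 0.05, against 5.46%. By FPKM all competent libraries lay above all control libraries for 4 genes, Pfkl, Pgk1, Pkm2 and Ogdh (background 6.81%). They lay below all control libraries for 4, Hk1, Aldoa, Ldhb and G6pdx (background 8.08%). These 8 differences were small, between −0.34 for G6pdx and 0.20 for Pgk1. By coverage the libraries of Pfkl, Pkm2, Ogdh and Hk1 overlap. Of the 33 genes, 17 were higher and 16 lower, with a median of 0.01; 27 intervals stayed within 2-fold and 17 within 1.5-fold. Ldha averaged 957 ± 141 FPKM in competent and 864 ± 147 FPKM in control libraries, a difference of 0.15 with an interval of −0.37 to 0.67.

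Medium of arrested embryos against control medium again left no gene past the threshold. Ldhb was higher and Pdk1 lower, each without overlap of the libraries by FPKM. By coverage the libraries of Pdk1 overlap. The test called 0 of 33 genes, against 0.0317% of all genes (4 genes), and 2 of 33 had an unadjusted p under 0.05, against 5.43%. Arrested libraries were all above control libraries for 2 genes, Ldhb and Idh2 (background 3.53%), and all below for 2, Pdk1 and Pgd (background 5.34%). Pdk1 differed by −0.54 ± 0.20 (SE), adjusted p = 0.871, Idh2 by 0.21 ± 0.12 (SE), adjusted p = 0.902 and Pgd by −0.19 ± 0.11 (SE), adjusted p = 0.902. In this comparison 14 genes were higher and 19 lower, with a median of −0.07; 26 intervals stayed within 2-fold and 17 within 1.5-fold. The comparison shares its arrested libraries with the first and its control libraries with the second, so the 3 are not independent. An F test over the groups called 0 of 33 genes at an adjusted p under 0.05, against 0.0952% of all genes (12 genes), and 2 of 33 at an unadjusted p under 0.05, against 7.95%.

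Within isozyme pairs, the same gene had the higher FPKM in every library for 7 of 8 pairs and the higher coverage for 4 of 8, and no ratio passed the test over the groups. These 8, of 10 pairs listed, had both genes above 0 in every library. Ldhb made up 11.1, 12.1 and 33.2% in arrested libraries, 7.39, 5.58 and 6.81% in competent libraries and 7.65, 7.95 and 11.3% in control libraries of the FPKM of Ldha and Ldhb together. Arrested libraries 1 and 2 bordered control library 3, and arrested library 3 was far above all. The log2 ratio was −2.28 ± 1.11 in arrested, −3.81 ± 0.22 in competent and −3.35 ± 0.34 in control libraries. An exact permutation F test gave p = 0.0107, adjusted p = 0.0857 over the 8 pairs (smallest possible p 0.00357). Arrested minus competent was 1.53 on the log2 scale, and 0.90 without arrested library 3 (exact permutation, adjusted p = 0.343). Over 18 alternative settings the adjusted p of this ratio ran from 0.0286 to 0.500, and it was under 0.05 in 4 of them, 1 of which left out arrested library 1. By coverage, Ldhb made up 26.9, 28.8 and 59.7% in arrested libraries, 18.8, 15.2 and 18.1% in competent libraries and 20.9, 20.3 and 29.4% in control libraries, so the share itself depends on the measure while arrested libraries 1 and 2 stay near control library 3.

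Pdk4 made up 16.9, 33.1 and 45.9% in arrested libraries, 16.7, 7.42 and 15.5% in competent libraries and 11.3, 9.55 and 22.4% in control libraries of Pdk1 and Pdk4. The arrested group had the highest mean, but its library 1 lay among the controls (exact permutation F test, p = 0.0786, adjusted p = 0.286). Idh1 made up 44.6, 47.0 and 26.8% in arrested libraries, 48.6, 49.7 and 48.4% in competent libraries and 51.3, 47.7 and 44.4% in control libraries of Idh1 and Idh2. Cytosolic and mitochondrial forms were near parity in every library but arrested library 3 (p = 0.107 and adjusted p = 0.286 by the same exact permutation test). Of the other 5 ratios, adjusted p was 0.557 for Hk2 to Hk1 and 0.843 for each of the remaining 4 (exact permutation). In all 9 libraries Hk1 exceeded Hk2, Pfkl exceeded Pfkm, Aldoa exceeded Aldoc and Eno1 exceeded Eno2, by FPKM and by coverage. By FPKM Ldha exceeded Ldhb, Pdk1 exceeded Pdk4 and Mdh1 exceeded Mdh2 in all 9 as well, but by coverage Ldhb and Pdk4 were the higher in arrested library 3, and Mdh2 in arrested library 3, competent library 2 and control library 3. Hk2 made up 6.98 to 25.2% of its pair, Pfkm 26.2 to 41.1%, Aldoc 2.59 to 11.1% and Mdh1 58.6 to 70.0%.

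The M1 transcript of Pkm2, which holds the first of the exons printed above, had 59.2, 73.3 and 35.2 FPKM in arrested libraries, 68.5, 65.9 and 83.4 FPKM in competent libraries and 57.4, 62.1 and 79.4 FPKM in control libraries. The M2 transcript had 88.1, 93.5 and 89.6 FPKM in arrested libraries, 98.6, 101 and 112 FPKM in competent libraries and 89.2, 102 and 79.2 FPKM in control libraries. M2 was the more abundant in 8 libraries and level with M1 in control library 3. M1 made up 37.4 ± 8.22% of both in arrested, 41.0 ± 1.61% in competent and 42.3 ± 6.73% in control libraries (exact permutation F test, p = 0.721). The lowest share, 28.2%, was that of arrested library 3, and the highest, 50.1%, that of control library 3. Smooth muscle is a tissue known to make M1. Its markers summed to 881, 2155 and 1193 FPKM in arrested, 1392, 2781 and 2106 FPKM in competent and 1618, 1696 and 1690 FPKM in control libraries. In the same order, the M1 share was 40.2, 44.0 and 28.2%, 41.0, 39.4 and 42.7%, and 39.2, 37.8 and 50.1%. The part of smooth muscle in the share was not tested.

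**Figure D5:**
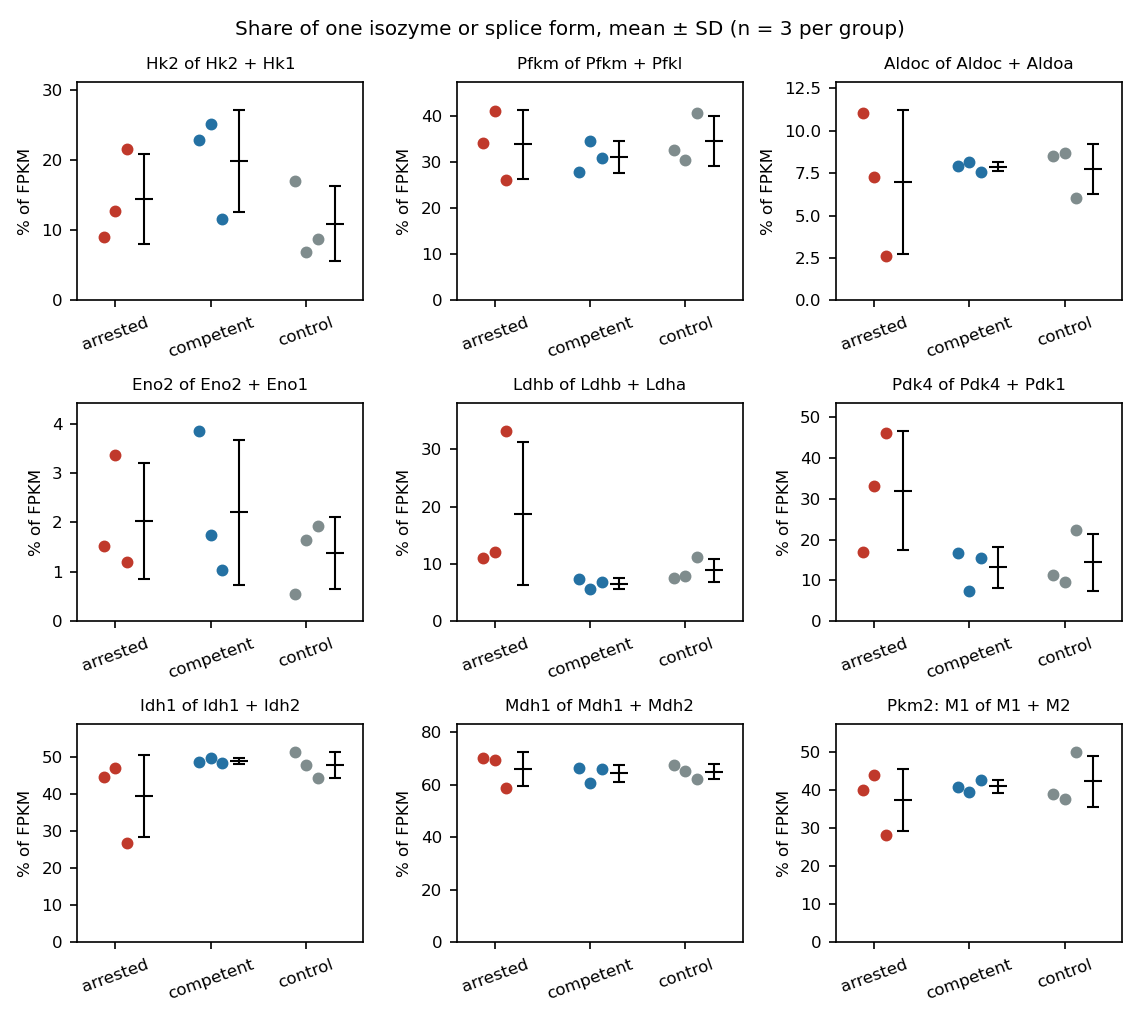
Share of the first-named gene in the FPKM of an isozyme pair, or of M1 among the Pkm2 splice forms, in percent, by library (coloured points) with mean ± SD (black, n = 3) for the arrested, competent and control groups. The Ldhb share is highest in arrested library 3 and lowest in the competent group, the Pdk4 share is highest in arrested libraries 2 and 3, and the Idh1 share is lowest in arrested library 3.

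Arrested library 3 stood apart on many of these genes. It held the highest of the 9 values for 8 of the 33 tested genes and the lowest for 11. That is 28.8% of their extreme values, beside 16.5% over all genes tested; for the other libraries the share ran from 4.55 to 16.7%. Its size factor of 0.945 was the lowest of the 9 and its coverage of 1808 Mb was within the range of the rest. Relative to the median of the other 8 libraries it was higher by 1.75 for Ldhb and 1.72 for Slc2a1, and its log2 difference was −1.45 for Aldoc, −1.01 for Idh1, −0.75 for Ldha and −0.68 for Pdha1. Arrested minus competent was −0.25 for Idh1 and 0.10 without it, −0.23 and 0.00 for Pdha1, and 0.23 and 0.50 for Suclg1. Without it the difference was −0.52 for Hk2, −0.16 for Pgk1 and −0.17 for Pkm2. Without it, 14 of 33 genes were higher and 19 lower in arrested than in competent libraries, with a median of −0.02, and 4 had an unadjusted p under 0.05 and 0 an adjusted one. These 4 were Ldhb, Suclg1, Pfkl and Pgam1, of which only Ldhb was also under 0.05 with all libraries. The unadjusted p without it was 0.0900 for Pdk1, 0.0537 for Idh2 and 0.0632 for Ogdh (limma).

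Genes that are not among the 34 were counted from 8 lists of 96 genes, of which 72 were tested, and none passed the test in any comparison. The lists held other genes of these routes and of glycogen, and 1 held regulators and targets of the hypoxia response outside glycolysis. Between arrested and competent libraries 33 were higher and 39 lower, and 8 had an unadjusted p under 0.05, beside 11.4% of all genes. Between competent and control libraries 2 did, beside 5.46%, and between arrested and control libraries 7 did, beside 5.43%. The lowest p-values were those of the prolyl hydroxylases that mark HIF1A for destruction, which are on the hypoxia list. Of the 12 genes tested on that list, 5 were higher and 7 lower in arrested than in competent libraries. Egln3 had 4.63, 2.17 and 4.53 FPKM in arrested libraries, 6.75, 10.8 and 10.2 FPKM in competent libraries and 4.25, 3.94 and 4.82 FPKM in control libraries, with arrested minus competent at −1.13 ± 0.27 (SE), adjusted p = 0.216 and competent minus control at 0.92 ± 0.27 (SE), adjusted p = 0.781. Egln1 differed by −0.58 ± 0.15 (SE), adjusted p = 0.232 between arrested and competent libraries. Bnip3, a mitophagy receptor and a HIF1A target, differed by 0.81 ± 0.26 (SE), adjusted p = 0.339. Of the genes that move pyruvate and lactate across membranes, Brp44, a subunit of the mitochondrial pyruvate carrier, differed by 0.61 ± 0.21 (SE), adjusted p = 0.354, and Slc16a7, a monocarboxylate transporter, by −0.85 ± 0.34 (SE), adjusted p = 0.391. Pdp1, the phosphatase that reverses the action of the Pdk kinases, differed by 0.64 ± 0.26 (SE), adjusted p = 0.399, and Dlst, a partner of Ogdh in the same complex, by −0.36 ± 0.15 (SE), adjusted p = 0.430. Adpgk, a hexokinase that uses ADP, differed by 0.71 ± 0.30 (SE), adjusted p = 0.419. Against control, arrested libraries differed by 1.04 ± 0.36 (SE), adjusted p = 0.871 for the transporter Slc2a8 and by 0.78 ± 0.25 (SE), adjusted p = 0.871 for Bpgm, which makes bisphosphoglycerate in red cells. They differed by −1.02 ± 0.34 (SE), adjusted p = 0.871 for Sdha of succinate dehydrogenase. Sdha had 157, 133 and 127 FPKM in arrested libraries and 361, 147 and 423 FPKM in control libraries. It passed the test without control library 2, the control that lay among the arrested values (difference −1.49, adjusted p = 0.0270, limma). Over the 25 alternatives the difference of Sdha ran from −1.49 to 0.13, so that its sign was not stable. For Acly, ATP citrate lyase, arrested minus control was −0.77 ± 0.28 (SE), adjusted p = 0.871. G6pc3, a glucose-6-phosphatase, differed by −0.36 ± 0.15 (SE), adjusted p = 0.890. In the glycogen and remaining pentose phosphate lists no gene had an unadjusted p under 0.05 in any comparison.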

How the data were processed

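Per the submitters' processing notes, Bowtie 0.12.2, Cufflinks and the mm9 build were used; the version and options of Cufflinks were not among the sources read. The deposited FPKM per transcript and their interval ends are the authors' values, as is the coverage signal per transcript, the deposited read depth per base. FPKM were summed per gene over annotated transcripts; 91479 of 92832 are in GENCODE vM1, which gave the gene symbols. Assembled transcripts entered an alternative.

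A mean of 1 FPKM or more was reached by 13333 genes, of which 724 listed at 0 in a library, with a median of at least 5 FPKM, were left out as failed estimates. In R 4.3.3, limma 3.58.1 with a mean trend was fitted to log2(FPKM + 1) of all 9 libraries with group means, and p-values were adjusted by Benjamini and Hochberg over 12609 genes at a threshold of 0.05. The fit was tested on simulated data. Isozyme ratios and the Pkm2 share were tested by exact permutation of the groups (F statistic) in Python 3.11.15. Genome copies were annotated genes of at most 5000 bases at places sharing at least 10% of a transcript's 32-base stretches. All 34 genes are named; of the other pathway lists, genes past the threshold and up to 3 per list of smallest unadjusted p. Genes, lists and tests were chosen with earlier results of these data known. Alternatives changed the scaling, pseudocount, filters, transcripts summed, trend and libraries included.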

Additional observations from a re-analysis of the deposited data

Results flagged for a closer look

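Transcripts that Cufflinks assembled outside the annotation were not part of the gene values. For Slc2a3, the glucose transporter GLUT3, they summed to 2.33, 2.56 and 4.87 FPKM in arrested libraries, 1.84, 1.86 and 1.73 FPKM in competent libraries and 1.87, 1.08 and 1.23 FPKM in control libraries. The lowest arrested library, with 2.33 FPKM, was above the highest control library, and this drew attention as a signal outside the main measurement that exceeds the control level. Of the 11 genes of the 34 that had assembled transcripts, no other was above all controls in every arrested or every competent library; the difference was not tested. The annotated transcripts of Slc2a3 were at or under 1.28 FPKM in every library.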

How the results depend on the processing

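No gene of the 34 passed the test in any comparison under any of 25 alternatives, 2 of which (genomic copies added, and arrested libraries 2 and 3 left out) were chosen after seeing the data. The second leaves 1 arrested library, which is assumed to vary like the libraries of the other groups. With 2 or more libraries in each group the smallest adjusted p among the 34 was 0.0645, for Ldhb between arrested and competent libraries without arrested library 3. Over all alternatives that difference ran from 0.81 to 1.43 with adjusted p of 0.0582 to 0.566. Signs of differences that never passed the test changed in 38, 38 and 58 of 819 values each for arrested minus competent, competent minus control and arrested minus control. The count of all genes called varied more. Between arrested and competent libraries it was 16, with 28 after adding assembled transcripts, 25 by coverage, 9 without the trend, 189 without arrested libraries 2 and 3, and 6 to 40 with 1 library left out, highest without arrested library 2 and lowest without competent library 2 or 3. Between competent and control libraries it was 4, with 7 without a filter on low values, 7 when failed estimates were left out by group, 1 with assembled transcripts, 1 by coverage and 0 to 8 with 1 library left out. Between arrested and control libraries it was 4, with 7 without a filter, 1 on protein-coding transcripts, 0 in a fit of these groups alone, 54 without arrested libraries 2 and 3, and 3 to 14 with 1 library left out. The F test called 12 genes, with 6 on protein-coding transcripts, 7 by coverage, 7 without the trend, 58 without arrested libraries 2 and 3, and 5 to 25 with 1 library left out. Of 8 isozyme ratios 0 passed; 1, Ldhb to Ldha, did with assembled transcripts, on the transcript of highest mean FPKM or with copies added, and 0 to 1 did with 1 library left out. With the replicate number as a block the counts were 4 for arrested minus competent, 0 for competent minus control, 3 for arrested minus control and 3 for the F test, with 0 ratios. Same-numbered libraries deviated from their group means with correlations of −0.0567 to 0.10, so the numbers were not taken as pairs. The arrested minus competent difference of the Pkm2 M1 share ran from −6.84 to 1.03 percentage points with 1 library left out. The causes of these changes were not tested.

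Depth in reads is unknown. Cufflinks interval half-widths of the 11 transcripts compared were 2.57 to 33.3% of the value, and the spread between libraries of a group was 5.70 to 48.0% (coefficient of variation).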
